A study of Mus musculus with 12 samples.

Results

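The mitosis genes described here, 40 of the 21853 genes in the deposited expression table, were measured in RNA of whole mouse bone marrow. They form a named list of G2 and mitosis genes, proposed with earlier results of these data known and with no measured value in its rule, and all 40 were found in the table by symbol. The 12 libraries fall into 4 groups of 3, all from B6 mice whose age is not given. Control mice were not irradiated, and no dosing is stated for them. TBI mice received total body irradiation, 5 Gy of gamma rays at 0.66 Gy/min, and 100 µL of olive oil by gavage. TBI+DEIX mice received the same irradiation and DEIX, deinoxanthin, a carotenoid pigment of radiation-resistant bacteria, at 25 mg/kg by mouth once a day for 14 days. DEIX mice received 25 mg/kg of the compound and no irradiation. TBI and control mice thus differed in irradiation and in the stated gavage of olive oil, and these cannot be told apart in TBI against control. Likewise, no vehicle is stated for the control mice in DEIX against control, which also enters the interaction. Marrow was collected 14 days after irradiation, so each comparison asks how much mitotic transcript the marrow held at that time. The labels do not say that the 3 libraries of a group came from separate animals, so the p-values below measure the spread between these libraries, which may be technical.

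A cell enters mitosis when cyclin-bound CDK1 becomes active. Chromosomes then condense, their centromeres attach to spindle microtubules through kinetochores, and the spindle checkpoint holds back the anaphase-promoting complex (APC/C) until every chromosome is attached. Once the APC/C is active, cyclin B is destroyed, sister chromatids separate and cytokinesis divides the cell. The transcripts of these proteins are made in late S, G2 and M phase and repressed in resting cells, which is why they are widely used as markers of dividing cells. In marrow, most division takes place in erythroid and granulocytic precursors and in precursor B cells, while mature neutrophils no longer divide.

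Repression and activation of this class of genes are known to run through a promoter element called the CHR, read by the MuvB complexes with B-MYB and FOXM1, and through CCAAT boxes bound by NF-Y. RefSeq promoters of the GRCm38.p6 build, 250 bases before to 50 bases after the start, were matched by symbol for 33 of the 40 genes, giving 35 promoters. The letters TTTGAA, the core of the CHR, were present on either strand in 28 of the 35 promoters (80%), against 12.35% of 11190 promoters of genes tested for expression and 17.89% of all 32851 promoters in the RefSeq table. CCAAT was present on either strand in 27 of 35 (77.1%), against 38.1% and 37.4%. Both were present in 24 of 35 (68.6%), against 5.08% and 6.95%. Neither string contains the other. A match of letters is a description of the window and not a bound site.

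The sequences below are shown so that these elements can be seen in genes the results return to. Each is read 5′ to 3′ on the strand of the gene, and capitals mark TTTGAA or its reverse complement TTCAAA, and CCAAT or its reverse complement ATTGG. Top2a (chr11:99024190-99024309, minus strand), Kif11 (chr19:37376262-37376381, plus strand) and Cdc20 (chr4:118437353-118437472, minus strand) carry both elements in 120 bases.
Top2a: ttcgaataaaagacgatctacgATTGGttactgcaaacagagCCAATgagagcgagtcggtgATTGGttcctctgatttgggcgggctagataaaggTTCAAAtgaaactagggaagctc
Kif11: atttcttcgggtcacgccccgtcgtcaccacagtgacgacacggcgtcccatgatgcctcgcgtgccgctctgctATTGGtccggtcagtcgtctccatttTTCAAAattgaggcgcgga
Cdc20: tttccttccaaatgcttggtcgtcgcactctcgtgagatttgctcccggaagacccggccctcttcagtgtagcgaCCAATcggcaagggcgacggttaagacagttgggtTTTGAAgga

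In Top2a the CCAAT element occurs 3 times in the printed stretch, in both orientations, upstream of a single TTCAAA. The shorter, 30-base stretches of Cdk1 (chr10:69352913-69352942, minus strand) and Kif15 (chr9:122951051-122951080, plus strand) hold TTTGAA or its reverse complement alone. Further upstream of its RefSeq start, Cdk1 also holds ATTGG at 48, 80 and 208 bases and a second TTTGAA at 71. Kif15 holds a second TTTGAA at 234 bases. Both stretches end at the RefSeq start. By GENCODE coordinates the Kif15 stretch lies inside the gene, which starts at 122951046, and most of the Cdk1 stretch lies inside its gene, which ends at 69352938. Nuf2 (chr1:169531465-169531584, minus strand) and Nusap1 (chr2:119618178-119618297, plus strand) are shown because they are among the 3 genes called below, and they hold neither string in the printed window.
Cdk1: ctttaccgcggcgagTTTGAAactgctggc
Kif15: ggggcgccaaaTTCAAAtctgcggccatct
Nuf2: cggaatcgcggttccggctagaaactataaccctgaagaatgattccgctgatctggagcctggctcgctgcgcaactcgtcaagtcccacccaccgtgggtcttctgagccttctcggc
Nusap1: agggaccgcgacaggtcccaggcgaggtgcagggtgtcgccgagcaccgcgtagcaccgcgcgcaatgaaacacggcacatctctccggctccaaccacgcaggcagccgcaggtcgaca

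Expression was given as FPKM, a level scaled to the length of the transcript and to the mapped fragments of its library. All 40 genes were expressed in every library, from 10.3 FPKM (Cenpf, TBI+DEIX replicate 3) to 202 FPKM (Ube2c, TBI replicate 1), and all 40 passed the filter for testing. Read totals are unknown. From the steps of low values, 1 read was worth from 0.877 to 2.14 times its FPKM value in control replicate 1, and the highest value, thus the shallowest library, was TBI+DEIX replicate 1, where the best value exceeded the next by a ratio of only 1.06. The lowest value, in control replicate 3, rested on a ratio of 1.04. Markers expected of whole marrow were present: summed FPKM ranged from 2106 to 5349.8 for 8 promyelocyte genes and from 345 to 12425 for 15 erythroid genes. Within groups, the median SD of the 40 genes on the log2(FPKM + 1) scale was widest in TBI+DEIX, at 0.263, where the other tested genes had 0.244. It was 0.096 in control, 0.112 in DEIX and 0.117 in TBI.

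Summed over the 40 genes, the TBI libraries held 2655 ± 193 FPKM (mean ± SD, n = 3) and were the high group. Control libraries held 2233 ± 31.9 FPKM, those of TBI+DEIX 2221 ± 277 FPKM and those of DEIX 2206 ± 183 FPKM. The single libraries show a more mixed picture. TBI+DEIX replicate 1 had the highest value of all 12 libraries in 14 genes and the lowest in 4, while TBI+DEIX replicates 2 and 3 lay below all 3 TBI libraries in 40 of 40 genes each. Counts by limma and medians of the 40 genes that use TBI+DEIX are therefore also given without replicate 1.

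**Figure D1:**
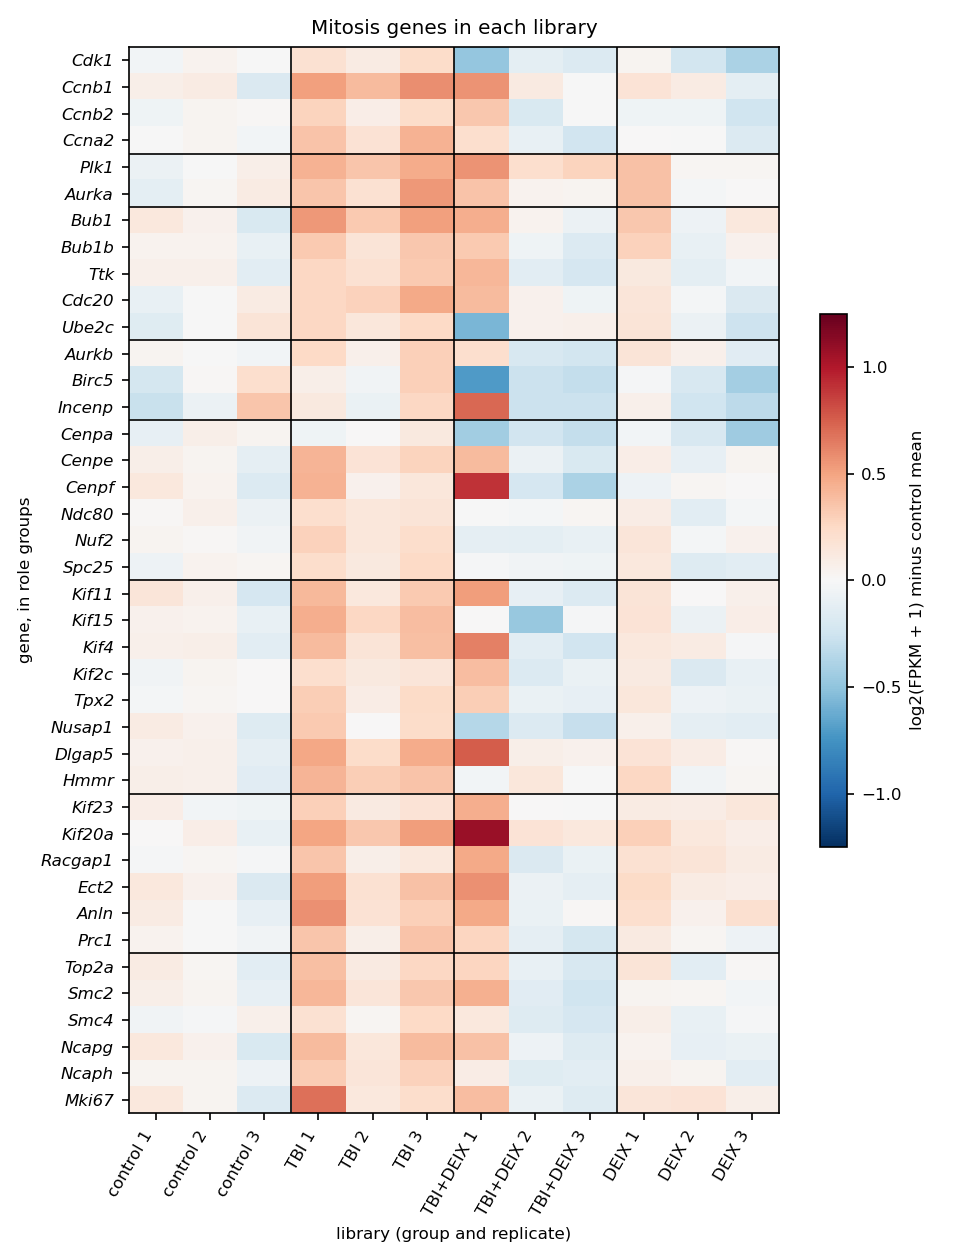
Each row is 1 of the 40 mitosis genes, ordered by role, and each column 1 of the 12 libraries; colour gives log2(FPKM + 1) minus the control mean of the gene, red higher and blue lower. The TBI columns are red in nearly every row, TBI+DEIX replicates 2 and 3 are mostly pale or blue, and TBI+DEIX replicate 1 is split between strong red (Kif20a, Cenpf) and strong blue (Birc5, Ube2c).

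In irradiated marrow against control, all 40 mitosis genes had a higher mean, against 57.8% of the 10994 genes tested with a log2 change above 0. Group means differed by a median of 20.8% of the control level, from 1.73% (Cenpa) to 41.4% (Ccnb1). None of the 40 was called by limma at a Benjamini-Hochberg adjusted p under 0.05, against 3.99% of all tested genes called, and 12 had an unadjusted p under 0.05 (18.1% of all tested genes). That count was 5 without control replicate 3 or without TBI replicate 1 (11.7% and 14.1%), 6 without TBI replicate 3 (15.4%), 3 without S100a8, S100a9 and Ngp (13.9%) and 0 on the TPM scale (10.9%). It was 17 without TBI replicate 2 (15%), 18 with the replicate block (17.2%), 25 with only the compared groups (31%) and 26 with array weights (47.3%). The libraries did not overlap, with all TBI above all control, in 31 of 40 genes, against 22% of all tested genes. The median log2 change was 0.26, beside 0.05 for all tested genes. With a median-of-ratios scale per library, 39 of the 40 stayed above 0. The direction was thus shared by nearly the whole list under each scale, and for no single gene did it pass the test.

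Among the CDK1 and cyclin genes, Ccnb1, the cyclin B1 gene whose product activates CDK1 at mitotic entry, stood out in size. Ccnb1 was at 65.2, 66.4 and 54.6 FPKM in control replicates 1 to 3 and at 88.9, 81.7 and 92.8 FPKM in TBI replicates 1 to 3. Every TBI library was above every control library, with a log2 change of 0.50 (SE 0.15, limma adjusted p = 0.102). Ccna2, which encodes the S and G2 phase cyclin A2 and was the most abundant of this role group, was at 131, 134 and 128 FPKM in control and 168, 148 and 177 FPKM in TBI, again without overlap (log2 change 0.32, limma adjusted p = 0.206). Cdk1 itself, the kinase, was at 108, 114 and 110.1 FPKM in control and 127, 119 and 129.8 FPKM in TBI. Its groups did not overlap, but its log2 change was only 0.17 (limma adjusted p = 0.514).

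Of the entry kinases, Plk1, which drives centrosome maturation and mitotic entry, was at 47.9, 50.4 and 53.3 FPKM in control and 68.8, 64.5 and 70.1 FPKM in TBI. All TBI libraries were higher, with a log2 change of 0.42 (SE 0.12, limma adjusted p = 0.0919). Aurka, encoding the spindle-pole kinase Aurora A, had a log2 change of 0.36, also with no overlap between groups (limma adjusted p = 0.203).

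In the checkpoint and APC/C group, the checkpoint kinase gene Bub1 had the largest log2 change, 0.46 (limma adjusted p = 0.141), and Cdc20, the APC/C activator, had 0.34 (limma adjusted p = 0.202). Ube2c, encoding the ubiquitin-conjugating enzyme of the APC/C and the most abundant gene of the list, was at 151, 168 and 189 FPKM in control and 202, 186 and 201 FPKM in TBI. Its highest control library lay above its lowest TBI library, so the groups overlapped, and the log2 change was 0.22 (limma adjusted p = 0.57).

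The chromosomal passenger genes had the smallest median log2 change of the 8 role groups, 0.11 over 3 genes. Birc5, encoding survivin, was at 113, 133 and 152 FPKM in control and 139, 128 and 162 FPKM in TBI, with groups that overlapped. Its log2 change was 0.11 (limma adjusted p = 0.784). Cenpa, the gene of the histone H3 variant that marks centromeres, was at 109, 124 and 120.2 FPKM in control and 113, 118 and 128 FPKM in TBI. These values were intermixed, and the log2 change of 0.02 was the smallest of the 40 (limma adjusted p = 0.94). The kinetochore genes Cenpe, Ndc80, Nuf2 and Spc25 had TBI libraries above all control libraries, with log2 changes from 0.17 to 0.29.

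Among spindle genes, Hmmr, encoding a microtubule-associated protein of spindle assembly, had the smallest adjusted p of the list. Hmmr was at 25.0, 24.8 and 21.4 FPKM in control and 32.1, 29.6 and 30.5 FPKM in TBI, and no TBI library reached down to the controls. The log2 change was 0.36 (SE 0.10, limma adjusted p = 0.0858). The gene of the bipolar spindle motor Eg5, Kif11, was at 64.7, 60.4 and 49.8 FPKM in control and 77.3, 63.8 and 72.9 FPKM in TBI, where TBI replicate 2 lay just under control replicate 1 (log2 change 0.29, limma adjusted p = 0.411).

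All 6 midzone and cytokinesis genes had TBI libraries above all control libraries. Racgap1, which encodes the GTPase-activating subunit of centralspindlin, was at 56.9, 58.1 and 56.9 FPKM in control and 73.2, 60.5 and 62.8 FPKM in TBI. The step was small (log2 change 0.19, limma adjusted p = 0.567), while Kif20a, the gene of a midzone kinesin, had a log2 change of 0.45 (limma adjusted p = 0.281). In the chromosome structure group, Top2a, encoding topoisomerase II alpha, was at 149, 141 and 127 FPKM in control and 180.4, 150.4 and 166 FPKM in TBI without overlap (log2 change 0.25, limma adjusted p = 0.385). Mki67, the gene of the proliferation marker Ki-67, reached 168 FPKM in TBI replicate 1 against 114 and 121 FPKM in the other TBI libraries, and the highest control library was level with the lowest of these, at 114 FPKM.

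With control and TBI libraries alone in the fit, 7 of the 40 genes were called, where 12.9% of all tested genes were. Leaving out any 1 library of either group left 0 called, where 1.07% to 2.44% of all tested genes were called, and the median stayed between 0.22 and 0.33. TBI replicate 2 lay below the mean of the other TBI libraries in 40 of 40 genes and also had the lowest erythroid sum of the TBI libraries. That sum over 15 erythroid genes was 12425, 2614 and 4911 FPKM in TBI replicates 1 to 3 and 4902 to 7992 FPKM in control, with none of the 15 at 0, and 0 of 15 were called. Promyelocyte genes summed to 2131 to 3966 FPKM in TBI and 3036 to 4288 FPKM in control, and pro-B and pre-B genes to 39.3 to 501 FPKM against 535 to 646 FPKM, with 0 of 8 and 0 of 11 called. Smaller lists held called genes: 5 of 5 megakaryocyte genes were lower and 4 called, and 6 of 7 stem and progenitor genes were lower and 2 called, Cd34 (log2 change -2.07) and Meis1 (-0.84). Of 9 monocyte and macrophage genes, Vcan was called higher (2.31) and C1qa (-1.10) and C1qb (-0.95) lower. All 6 T and NK genes were lower and 0 were called, and of 2 tested stroma genes Col1a1 was called higher (0.77). The part of these cell types in the mitosis values was not tested. In bulk marrow, a change in the number of dividing cells and a change in transcript per dividing cell cannot be told apart.

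**Figure D2:**
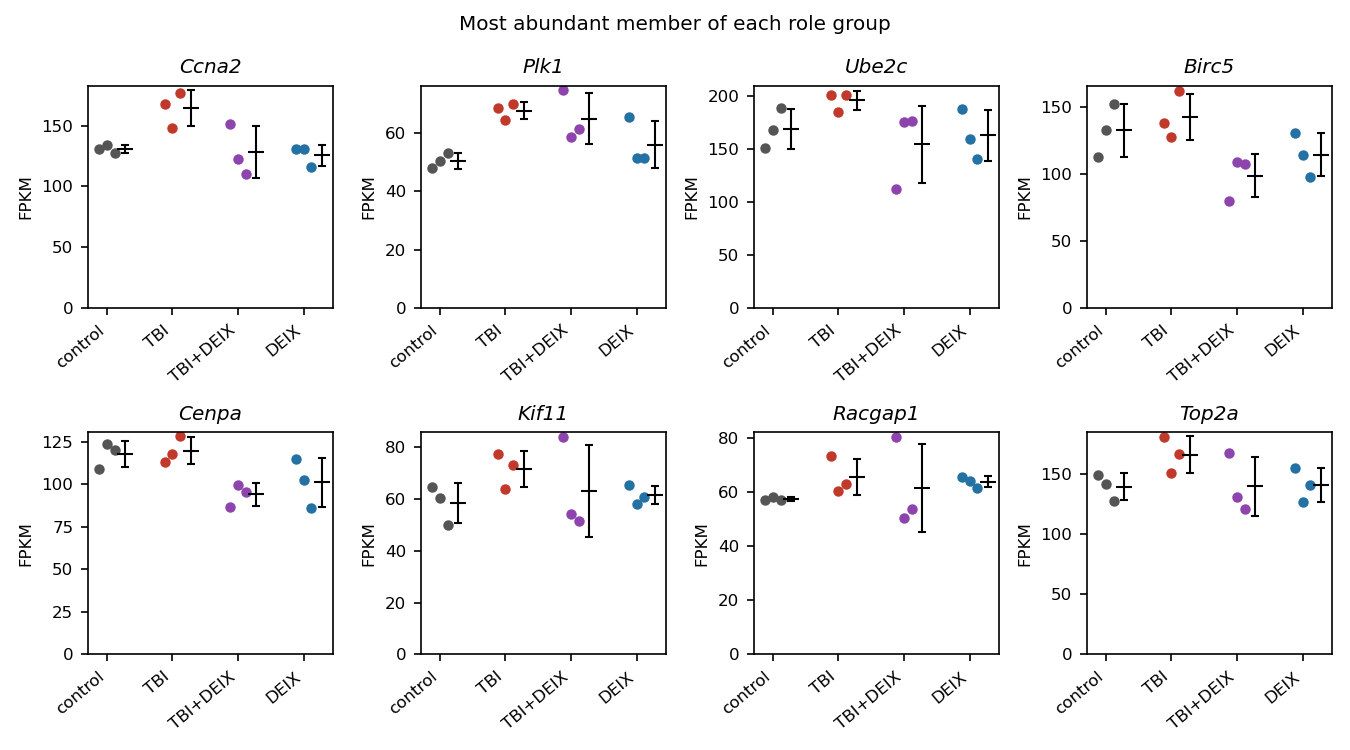
FPKM (vertical axes, from 0) of the most abundant gene of each role group in the 4 groups of 3 libraries; points are libraries and the black bar with caps is mean ± SD. Ccna2, Plk1, Racgap1 and Top2a show all 3 TBI points above all control points, whereas Birc5 and Cenpa overlap, and the TBI+DEIX points are the most scattered in Ube2c, Kif11 and Racgap1.

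With DEIX after irradiation, 39 of the 40 mitosis genes had a log2 change below 0 relative to TBI with vehicle, against 49.5% of all tested genes. Group means differed by a median of -15.2% of the TBI level. Of the 40, 3 were called lower, Nusap1, Nuf2 and Kif15, where 8.1% of all tested genes were called in either direction and 3.41% lower. Of the list, 10 genes had an unadjusted p under 0.05 (27.2% of all tested genes), and 11 had all TBI+DEIX libraries below all TBI libraries (12.7% of all tested genes). The median log2 change was -0.24, beside 0.003 for all tested genes. On a TPM scale the median of all tested genes moved to -0.12 and that of the mitosis genes to -0.37, so the gap between them was -0.24 and -0.26 on the FPKM and TPM scales. This comparison uses the same 3 TBI libraries as TBI against control, so the opposite signs of both are not independent of each other.

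Nusap1 (ENSMUSG00000027306.15, chromosome 2, 119618298 to 119651244, GRCm38) encodes a protein that bundles and anchors spindle microtubules. It was at 61.7, 49.0 and 57.3 FPKM in TBI and 37.8, 43.2 and 39.8 FPKM in TBI+DEIX, and at 52.6, 50.8 and 43.6 FPKM in control. All TBI+DEIX libraries lay below all TBI libraries, and below all controls too. Nusap1 fell by 0.46 on the log2 scale (SE 0.11, limma adjusted p = 0.0349).

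Nuf2 (ENSMUSG00000026683.14, chromosome 1, 169497934 to 169531464) encodes a subunit of the NDC80 complex, the main microtubule coupler of the kinetochore. Its values were 43.6, 39.3 and 41.6 FPKM in TBI, 32.9, 32.6 and 33.4 FPKM in TBI+DEIX and 36.4, 36.0 and 34.5 FPKM in control. The 3 TBI+DEIX libraries were close together here and lay under every library of the other groups. The gene fell by 0.32 on the log2 scale (SE 0.08, limma adjusted p = 0.0353).

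Kif15 (ENSMUSG00000036768.6, chromosome 9, 122951046 to 123018733) encodes a kinesin that works beside Eg5 in keeping the spindle bipolar. Its level was 32.4, 28.2 and 30.8 FPKM in TBI and 23.5, 16.5 and 23.1 FPKM in TBI+DEIX, with 24.3, 24.1 and 21.8 FPKM in control. The groups did not overlap, and TBI+DEIX replicate 2 was the lowest library of all 12. Kif15 fell by 0.53 on the log2 scale (SE 0.13, limma adjusted p = 0.0360). For all 3 genes the mean of TBI+DEIX lay below that of control as well as that of TBI.

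The calls of these 3 genes were not stable. With TBI and TBI+DEIX libraries alone in the fit, 0 of 40 were called, as were 0% of all tested genes, and on the TPM scale 0 of 40 and 1.18% of all tested genes were called. Leaving out TBI replicate 1, TBI replicate 3 or TBI+DEIX replicate 3 also left 0 called, where 7.8%, 0.0456% and 0.447% of all tested genes were called. Leaving out TBI replicate 2 or TBI+DEIX replicate 2 left 1, Nusap1, with 3.14% and 8.65% of all tested genes called. Across 15 alternatives the limma adjusted p ranged from 0.0277 to 0.154 for Nusap1, from 0.00512 to 0.207 for Nuf2 and from 0.00221 to 0.169 for Kif15, and all kept a negative log2 change.

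Several genes not called had non-overlapping groups. Cdk1 was at 127, 119 and 129.8 FPKM in TBI and 79.1, 101 and 98.4 FPKM in TBI+DEIX, with replicate 1 the lowest (log2 change -0.43, limma adjusted p = 0.0615). Birc5 was at 139, 128 and 162 FPKM in TBI and 80.3, 109 and 107 FPKM in TBI+DEIX, a log2 change of -0.53 (limma adjusted p = 0.0691). Cenpa, the gene with the smallest log2 change in TBI against control, was at 113, 118 and 128 FPKM in TBI and 86.8, 99.7 and 95.5 FPKM in TBI+DEIX (log2 change -0.35, limma adjusted p = 0.0913). Ube2c was at 202, 186 and 201 FPKM in TBI and 113, 176 and 176 FPKM in TBI+DEIX, again lowest in replicate 1 (log2 change -0.37, limma adjusted p = 0.214). Without TBI+DEIX replicate 1 the log2 change of Ube2c was -0.15 (limma adjusted p = 0.387). Those of Cdk1, Birc5 and Cenpa were then -0.32, -0.39 and -0.29, also smaller in size and not called. For Hmmr, the TBI+DEIX libraries at 23.1, 26.2 and 23.5 FPKM stayed below the TBI libraries at 32.1, 29.6 and 30.5 FPKM (log2 change -0.33, limma adjusted p = 0.0716). The other non-overlapping genes were Ndc80, Spc25 and the condensin gene Ncaph.

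In other members, replicate 1 lay with or above the TBI libraries. Ccna2 was at 152, 123 and 110.3 FPKM in TBI+DEIX replicates 1 to 3, of which the first falls inside the TBI range and the others fall below the lowest control (log2 change -0.36, limma adjusted p = 0.0957). Top2a was at 167, 130.3 and 120.4 FPKM, with replicate 1 inside the TBI range and the others below it (log2 change -0.26, limma adjusted p = 0.265). The same order held for Ccnb1 at 91.6, 66.9 and 61.6 FPKM (log2 change -0.27, limma adjusted p = 0.266). Kif11 was at 83.6, 54.1 and 51.3 FPKM and Racgap1 at 80.1, 50.3 and 53.8 FPKM, both with replicate 1 above all 3 TBI libraries and the other replicates below all of them. Plk1 was at 74.9, 58.6 and 61.4 FPKM in the same pattern. Its log2 change was only -0.07 (limma adjusted p = 0.761). The exception to the downward direction on the log2 scale was Kif20a, at 45.3, 40.6 and 46.4 FPKM in TBI and 68.6, 36.0 and 35.2 FPKM in TBI+DEIX (log2 change 0.01, limma adjusted p = 0.978). In means of FPKM, Incenp was also higher in TBI+DEIX than in TBI, by 2.52%, with a log2 change of -0.04.

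Without TBI+DEIX replicate 1, 40 of 40 genes had a log2 change below 0 and 28 were called, all lower, where 25.8% of all tested genes were called and 9.6% lower. An unadjusted p under 0.05 was found for 36 of the 40, and for 40.8% of all tested genes. The median log2 change was then -0.39. It was -0.16 without TBI+DEIX replicate 3, with 35 of 40 genes below 0. All 6 chromosome structure genes were among the called, as were 7 of 8 spindle genes, 5 of 6 midzone and cytokinesis genes and 4 of 5 checkpoint and APC/C genes. Neither entry kinase was called, and 1 of 3 passenger genes and 3 of 6 centromere and kinetochore genes were. For example, Ccna2 fell by 0.49 (limma adjusted p = 0.0105), Top2a by 0.40 (limma adjusted p = 0.0326), Mki67 by 0.46 (limma adjusted p = 0.0465) and Kif20a by 0.30 (limma adjusted p = 0.0427) on the log2 scale. These values rest on 2 TBI+DEIX libraries. Replicate 1 was singled out after its values were seen, and nothing in the labels marks it as faulty.

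**Figure D3:**
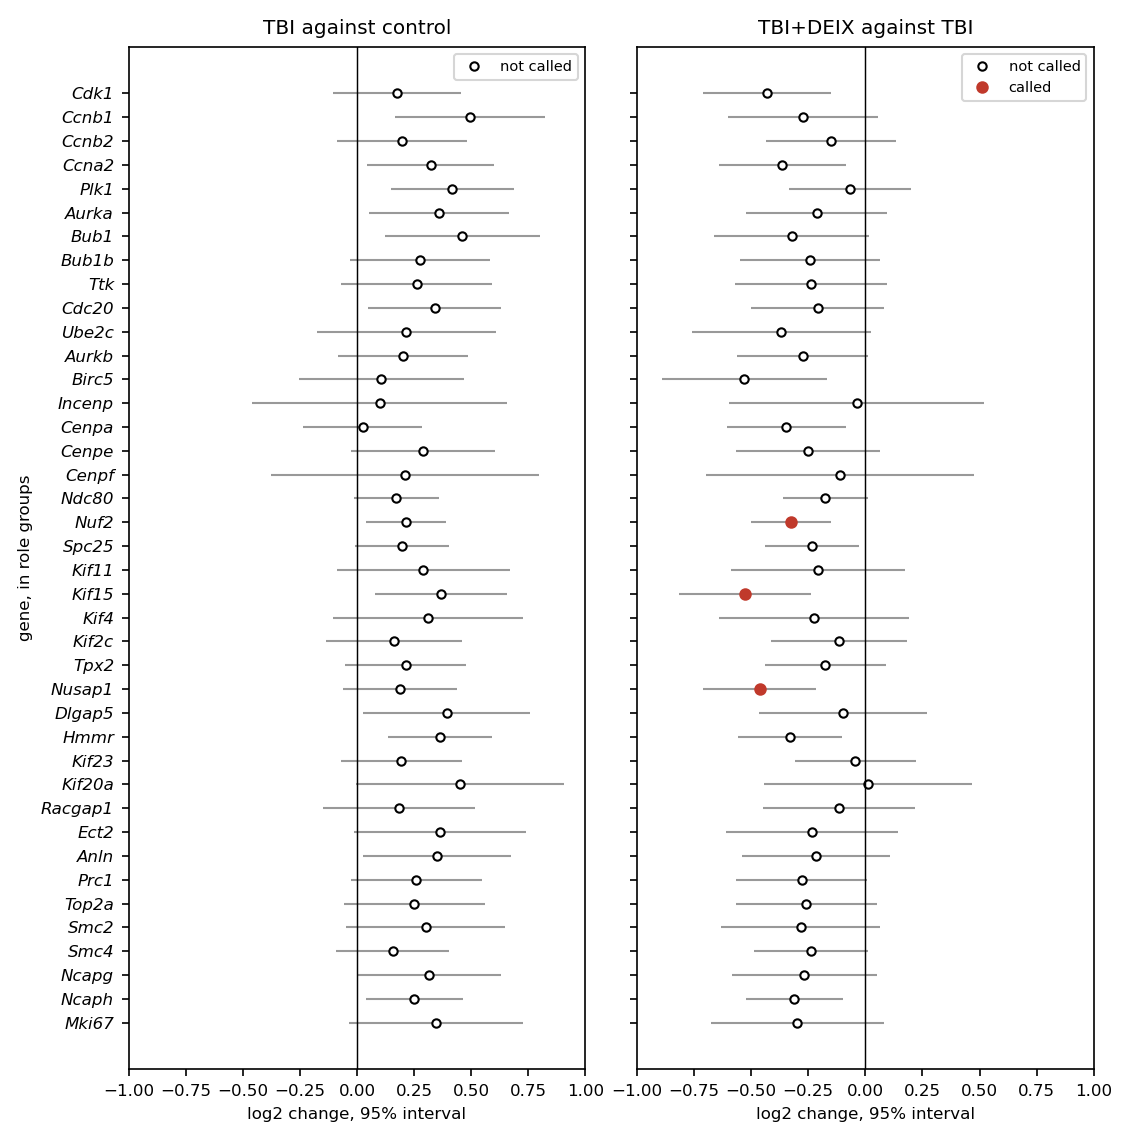
Log2 change of each of the 40 genes (horizontal axis; point and 95% interval from limma) for TBI against control, left, and TBI+DEIX against TBI, right, with genes in role groups down the vertical axis; filled red points were called. All points on the left lie above 0 and none was called, and on the right all but Kif20a lie below 0 and 3 were called.

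The log2 difference of TBI+DEIX replicate 1 from the mean of replicates 2 and 3 was 1.20 for Cenpf, 0.99 for Incenp and 0.93 for Kif20a, and it was -0.64 for Ube2c, -0.43 for Birc5 and -0.33 for Cdk1. Over the 40 genes the Spearman correlation of this difference with the length of the longest protein-coding transcript was 0.44, and over all 10994 tested genes it was 0.33. Other libraries, set against the mean of their partners in the same way, also had such correlations over the 40 genes and over all tested genes: 0.64 and 0.56 for control replicate 1, -0.58 and -0.50 for control replicate 3, 0.67 and 0.21 for TBI replicate 1, and 0.55 and 0.40 for DEIX replicate 3. A relation with length was thus not particular to TBI+DEIX replicate 1. These are correlations across genes of the same 3 libraries of a group, given as a description, and genes are not independent replicates. Over all tested genes, TBI+DEIX replicate 1 had a median log2 difference from its partners of -0.34 for transcripts under 2000 bases and 0.15 for those of 4000 bases or more. Over the mitosis genes it was 0.35 under 2000 bases and 0.52 at 4000 bases or more. The part of length in the values of replicate 1 was not tested.

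**Figure D4:**
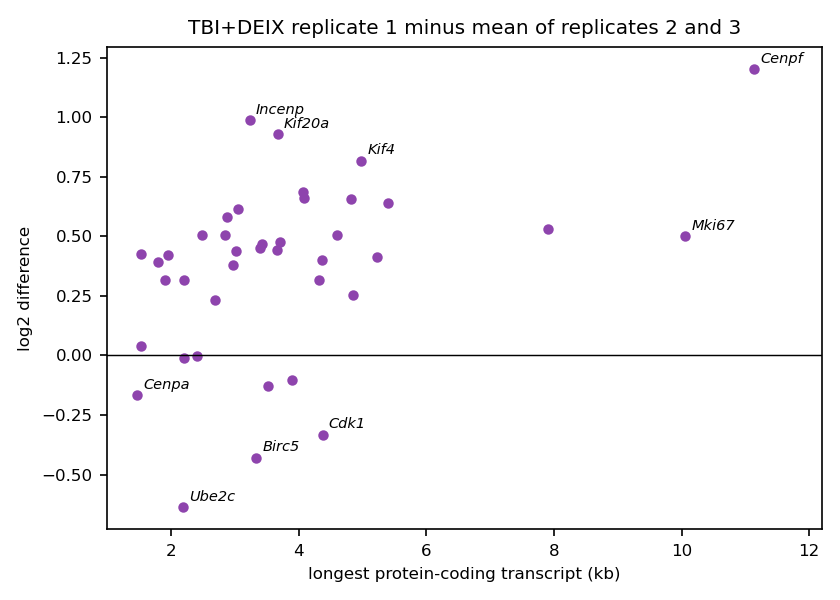
Length of the longest protein-coding transcript (horizontal axis, kb) against the log2 difference of TBI+DEIX replicate 1 from the mean of replicates 2 and 3 (vertical axis) for each of the 40 genes. Most points lie above 0, with Cenpf, the longest, at 1.20, and Ube2c at -0.64 is the lowest.

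Markers of other cell types were read in the same comparison. The erythroid genes summed to 345, 2324 and 632 FPKM in TBI+DEIX replicates 1 to 3, against 2614 to 12425 FPKM in TBI. All 15 were lower, 5 were called lower, none was at 0, and the median log2 change was -2.46. Without TBI+DEIX replicate 1, 7 were called at a median of -1.92 (25.8% of all tested genes), and without TBI+DEIX replicate 2, 12 were called (8.65%). The count was 0 without TBI replicate 1 (7.8%), TBI replicate 3 (0.0456%) or TBI+DEIX replicate 3 (0.447%). It was also 0 with the replicate block (4.31%), with no filter on low values (3.91%) or with only the compared groups in the fit (0%).

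Pro-B and pre-B genes summed to 7.72 to 249 FPKM in TBI+DEIX and 39.3 to 501 FPKM in TBI, with 11 of 11 lower and 0 called. Without TBI+DEIX replicate 1, 9 of 11 were lower and 0 called, and without TBI replicate 1, 5 were called lower (7.8% of all tested genes called). Promyelocyte genes were at 2106 to 3383 FPKM in TBI+DEIX and 2131 to 3966 FPKM in TBI, with 0 of 8 called with or without TBI+DEIX replicate 1. Of the 11 maturing neutrophil genes, 9 were higher and 0 called, but 6 were called higher without TBI+DEIX replicate 1, as were 4 of 6 T and NK genes, of which 0 were called with all libraries. Of all tested genes, 25.8% were called without that library and 8.1% with it. Ngp, S100a8 and S100a9 were listed at 0 in some libraries while very high in others. The monocyte and macrophage genes Fn1 (log2 change -1.03), C1qb (0.96) and C1qa (0.86), the megakaryocyte gene Gp9 (-0.77) and the haematopoietic factor gene Spi1 (0.68) were also called. Their lists held 0 called genes with only the compared groups in the fit, without TBI replicate 3 or without TBI+DEIX replicate 3. Of all tested genes, 0%, 0.0456% and 0.447% were called there. The stem and progenitor list, which holds Spi1, also had 0 called with the replicate block (4.31%) and on the TPM scale (1.18%). The TBI+DEIX library with the lowest erythroid sum, replicate 1, was the one with the highest summed mitosis level of its group, 2539 FPKM against 2088 and 2036 FPKM. The part of these cell types in the mitosis values was not tested.

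Related gene lists, chosen for their place in the cell cycle, were compared in the same fit. Of 70 other mitosis genes, 62 were lower in TBI+DEIX than in TBI and 9 were called lower, led by the mitotic kinase gene Pbk (log2 change -0.61, limma adjusted p = 0.0330) and the centromere genes Cenpm (-0.59) and Cenpk (-0.57). Of 23 regulators of mitotic genes, 18 were lower and 2 were called: Lin52, a MuvB subunit (-0.63), and Wee1, the kinase that inhibits CDK1 (-0.42). Of 34 S phase genes, 34 were lower and 22 were called, with a median log2 change of -0.59. The largest were the replication licensing gene Cdc6 (-0.98, limma adjusted p = 0.0196) and the cyclin E genes Ccne2 (-0.83) and Ccne1 (-0.82). Of 11 tested genes of G1 and cell cycle exit, 1 was called, the CDK inhibitor gene Cdkn2d, which was higher (0.68, limma adjusted p = 0.0322). Over all tested genes, 8.1% were called. Single libraries and settings moved these counts. Without TBI+DEIX replicate 1, where 25.8% of all tested genes were called, 9 regulators were called lower, and 4 G1 and exit genes were called higher and 1 lower, with the median of that list at 0.32 in place of -0.07. On the TPM scale, with only the compared groups in the fit, or with replicate 3 of either TBI or TBI+DEIX left out, no regulator and no G1 and exit gene was called. Without TBI replicate 2, 1 regulator was called, and without TBI+DEIX replicate 2, 1 G1 and exit gene was called lower beside 1 higher. The S phase count was 33 without TBI+DEIX replicate 1, and 13 without TBI replicate 2 (3.14% of all tested genes) or with the replicate block (4.31%). It was 3 on the TPM scale (1.18%). It was 0 without TBI replicate 3 (0.0456%), without TBI+DEIX replicate 3 (0.447%) or with only the compared groups in the fit (0%). The count of other mitosis genes was 0 on the TPM scale, with the replicate block and with only the compared groups, 38 without TBI+DEIX replicate 1 and between 0 and 4 with any 1 other library of these groups left out.

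In TBI against control, 61 of the 70 other mitosis genes were higher and 1 was called, the kinetochore gene Dsn1 (log2 change 0.37, limma adjusted p = 0.0359), and 20 of the 23 regulators and 34 of the 34 S phase genes were higher with 0 called. Of all tested genes, 57.8% were higher and 3.99% called. The median log2 changes were 0.20, 0.15 and 0.19, beside 0.26 for the 40 mitosis genes and 0.05 for all tested genes.

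**Figure D5:**
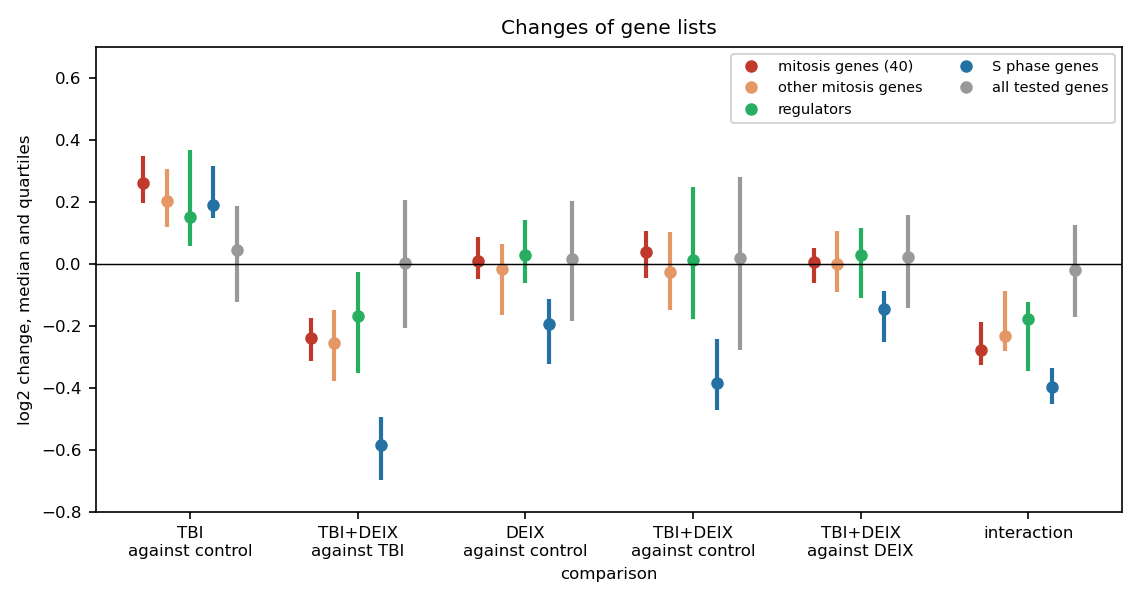
Median (point) and quartiles (bar) of the log2 change over the genes of 5 lists in each of the 6 comparisons. In TBI against control the mitosis, other mitosis, regulator and S phase lists all lie above the median of all tested genes, and in TBI+DEIX against TBI the S phase list lies lowest, at a median of -0.59, with the 40 mitosis genes at -0.24.

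In unirradiated marrow, DEIX against control gave no shared direction on the FPKM scale: 23 of the 40 genes had a log2 change above 0 (52.3% of all tested genes) and 17 below. None was called, where 7.24% of all tested genes were, and none had an unadjusted p under 0.05 (24.7% of all tested genes). The median log2 change was 0.01, beside 0.02 for all tested genes. On the TPM scale 37 of the 40 lay below 0, and the mitosis median was -0.14 where that of all tested genes was -0.13. Only 2 genes, Kif23 and Racgap1, had all DEIX libraries above all controls (23.4% of all tested genes). The smallest adjusted p was that of Cenpa, at 115, 103 and 86.2 FPKM in DEIX and 109, 124 and 120.2 FPKM in control, where DEIX replicate 1 lay inside the control range (log2 change -0.22, 95% interval -0.49 to 0.04, limma adjusted p = 0.271). Cdk1 followed at 113, 94.3 and 83.8 FPKM (log2 change -0.20, limma adjusted p = 0.37), and Birc5 at 131, 115 and 98.2 FPKM (log2 change -0.21, limma adjusted p = 0.468). DEIX replicate 1 was the highest DEIX library in these 3 genes. With 1 library left out, the log2 change ranged from -0.32 to -0.12 for Cenpa, from -0.31 to -0.10 for Cdk1 and from -0.32 to -0.11 for Birc5. All 3 were smallest in size without DEIX replicate 3.

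TBI+DEIX against control also lacked a shared direction, with 25 of the 40 genes above 0 (52.1% of all tested genes) and 15 below, and a median log2 change of 0.04. That sign held on no other scale: the median was -0.08 as TPM, beside -0.10 for all tested genes, and -0.02 with median-of-ratios factors. None was called, where 30% of all tested genes were, and 5 had an unadjusted p under 0.05 (41.6% of all tested genes). Plk1, at 74.9, 58.6 and 61.4 FPKM in TBI+DEIX and 47.9, 50.4 and 53.3 FPKM in control, was above in every library, with a log2 change of 0.35 (limma adjusted p = 0.0503). Kif20a was the only other gene without overlap in that direction (23.9% of all tested genes). Cenpa (log2 change -0.32, limma adjusted p = 0.0622), Birc5 (-0.42, limma adjusted p = 0.0758), Nusap1, Cdk1 and Nuf2 had all TBI+DEIX libraries below all controls (21.1% of all tested genes). Without TBI+DEIX replicate 1 the median turned to -0.12 and 31 of 40 genes lay below 0, with 0 called (38.5% of all tested genes) and 3 with an unadjusted p under 0.05 (47.8% of all tested genes). With all libraries, 33 of 34 S phase genes were lower and 14 called, with a median of -0.39. Of 70 other mitosis genes, 8 were called lower and 1 higher. All 15 erythroid genes were lower and 9 called, and all 11 pro-B and pre-B genes were lower and 8 called. All 11 maturing neutrophil genes were higher and 4 called. Beside these counts, 30% of all tested genes were called. The part of these lists in the mitosis values was not tested.

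Between TBI+DEIX and DEIX, which differ in irradiation, 22 of 40 genes lay above 0 (54.9% of all tested genes), 0 were called (2.57% of all tested genes) and 0 had an unadjusted p under 0.05 (16.2% of all tested genes). The smallest adjusted p was that of Nuf2, at 32.9, 32.6 and 33.4 FPKM in TBI+DEIX and 39.5, 35.0 and 36.9 FPKM in DEIX, followed by Nusap1, at 37.8, 43.2 and 39.8 and 50.9, 45.2 and 44.6 FPKM, the 2 genes without overlap, both lower in TBI+DEIX (8.96% of all tested genes). Their log2 changes were -0.17 (limma adjusted p = 0.339) and -0.22 (limma adjusted p = 0.386). Plk1 came next, at 65.5, 51.4 and 51.3 FPKM in DEIX, with a log2 change of 0.21 (limma adjusted p = 0.437) and overlapping groups. Over the 40 genes the median log2 change was 0.01, and without TBI+DEIX replicate 1 it was -0.12, with 32 genes below 0, 0 called (8.35% of all tested genes) and 5 with an unadjusted p under 0.05 (25.9% of all tested genes).

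The interaction compares the DEIX difference in irradiated mice with that in unirradiated mice. It was below 0 in 39 of 40 genes (53.5% of all tested genes), with a median of -0.28 on the log2 scale. None was called, where 0.2% of all tested genes were, and 4 had an unadjusted p under 0.05 (7.5% of all tested genes). The smallest adjusted p-values belonged to Nuf2 (-0.38, 95% interval -0.63 to -0.13, limma adjusted p = 0.321), Kif15 (-0.59, limma adjusted p = 0.368) and Hmmr (-0.41, limma adjusted p = 0.506). Without TBI+DEIX replicate 1, 40 of 40 genes lay below 0, the median was -0.41 and 0 were called (3.01% of all tested genes). The count with an unadjusted p under 0.05 was then 29, beside 19% of all tested genes. The median was -0.17 without TBI+DEIX replicate 3. With all 12 libraries, 15 of 15 erythroid genes were below 0, with a median of -2.16, and 10 of 11 pro-B and pre-B genes above it, with a median of 1.16, and 0 of either list were called. Of 9 monocyte and macrophage genes, 3 were called, C1qa (2.52) and C1qb (2.43) above 0 and Fn1 (-2.20) below. S phase genes were below 0 in 34 of 34, with a median of -0.40 and 0 called. In DEIX against control, which enters the interaction, 11 of 11 pro-B and pre-B genes were lower, with a median of -2.38 and 1 called. They summed to 66.2 to 105 FPKM in DEIX and 535 to 646 FPKM in control. In that comparison 15 of 15 erythroid genes were lower, with a median of -0.60 and 0 called. Of all tested genes, 7.24% were called there. The part of these cell types in the interaction was not tested. In DEIX, Kif15 was at 26.4, 22.1 and 24.8 FPKM and Hmmr at 28.4, 22.9 and 24.1 FPKM, ranges that overlap those of control. The interaction shares its TBI libraries with both comparisons that involve the TBI group, so the 3 sets of values are not independent. A difference between the DEIX effects with and without irradiation was thus not shown for any single mitosis gene.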

How the data were processed

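RNA of whole bone marrow was sequenced from 12 libraries made with a directional messenger RNA kit, per the labels' protocols. The deposited values are FPKM per gene, computed by the authors. STAR 2.6, Cufflinks 2.2.1 and mm10 are named in the submitters' processing notes, without their roles. Identifiers matched GENCODE vM21 (GRCm38), which gave symbols and coordinates. FPKM holds no counts, and Cufflinks-type estimates can be listed at 0 in single libraries, as for S100a8, S100a9 and Ngp.

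FPKM was put on the scale log2(FPKM + 1), on which changes of low genes come out too small, and tested with limma 3.58.1 in R 4.3.3 (lmFit, eBayes with trend). One model of 4 group means over 12 libraries was fitted to 10994 genes with at least 1 FPKM in at least 3 libraries, with Benjamini-Hochberg adjustment over all genes and a call at 0.05. The script was tested on simulated data. The 40 genes and all gene lists were chosen with earlier results of these data known. Values in every library are given for the most abundant gene of each of 8 role groups and for the 3 genes with the smallest adjusted p per comparison, and from other lists at most the 3 largest called genes are named. Kif20a, Mki67, Bub1, Cdc20 and Aurka are given further values chosen after they were seen. Alternatives were pseudocount 0.1, filters, TPM and median-of-ratios scales, only the compared groups, a replicate block, array weights, removal of S100a8, S100a9 and Ngp, and leaving out each library.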

Additional observations from a re-analysis of the deposited data

How the results depend on the processing

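The 6 medians, 6 counts of called genes and 18 single-gene changes were recomputed under each alternative. No single-gene change reversed; 242 kept their side of the threshold, 18 gained a call and 25 lost one. The losses fell on the 3 genes called in TBI+DEIX against TBI. Of 15 alternatives, 8 called Nusap1, 6 called Nuf2 and 6 called Kif15. Of the counts of called genes, 77 stayed the same or close and 18 moved. Of the medians, 92 moved by less than the spread between replicates and 3 moved by more.

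With only the compared groups in the fit, 7 genes were called in TBI against control (12.9% of all tested genes) and 0 in TBI+DEIX against TBI. Array weights were estimated by limma's gene-by-gene method, since its default method (REML) did not converge, and were lowest for TBI+DEIX replicate 1, at 0.0709, and highest for control replicate 2. They gave 19 called genes in TBI against control (38.4% of all tested genes), 28 in TBI+DEIX against TBI (40.8%), 2 in DEIX against control (41%), 10 in TBI+DEIX against control (56.3%) and 2 in the interaction (4.84%), and a median of -0.14 in TBI+DEIX against control. On the TPM scale 0 genes were called in TBI+DEIX against TBI (1.18% of all tested genes), and the median of DEIX against control was -0.14. In TBI+DEIX against control, 3 genes were called with median-of-ratios factors (29.4% of all tested genes) and 2 without S100a8, S100a9 and Ngp (23.1%). Leaving out 1 library gave from 0 to 28 called genes in TBI+DEIX against TBI, beside 0.0456% to 25.8% of all tested genes. In TBI+DEIX against control it gave from 0 to 1, beside 18% to 38.5%, and the median ranged from -0.12 to 0.14. The 1 call came without TBI+DEIX replicate 2, where 28.6% of all tested genes were called. The cause of these differences was not tested.

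Over all tested genes, libraries with the same replicate number did not deviate together. Over 18 such pairs the correlation of deviations from group means had a median of -0.07, and 3 pairs were over 0.1. Of the 12 libraries, 2 correlated best with their own number. With the replicate number as a block, 1 gene, Kif15, was called in TBI+DEIX against TBI (4.31% of all tested genes). The numbers are therefore only names.

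Depth is unknown for FPKM. In TBI+DEIX against TBI, leaving out any 1 of the 6 libraries changed the number of the 40 genes called.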
